A study of Mus musculus with 15 samples.

Results

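p53 (Trp53) and 8 genes that p53 is known to activate, Mdm2, Ccng1, Trp53inp1, Phlda3, Zmat3, Eda2r, Aen and Plk2, were followed by RNA-seq in mouse fetal liver cells transformed with the MLL-ENL oncogene. The 9 genes were taken by symbol from a table of 53379 genes. The values came from 15 libraries in 5 groups of 3: WT, dKO and LAPS cells of clone C1, and WT and dKO cells of clone C2. WT cells carried floxed, undeleted Cebpa and Cebpb genes. Both genes had been deleted in dKO cells, which also expressed GFP, and LAPS cells were dKO cells expressing GFP and the rat C/EBPβ isoform LAP*. MLL-ENL and growth in IL-3 at 10 ng/ml were common to all groups. No vector is listed for WT cells, so the deletion and the GFP vector cannot be told apart. Each clone grew from a single transformed colony of its own animal, and the dKO cells were subclones that survived the deletion. The deletion can also not be told apart from the Cre treatment that made it or from the selection of these subclones. The 3 libraries of a group were RNA samples taken from the same line at different times, so the p-values below measure the spread over such samples and not over animals.

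p53 is a transcription factor that DNA damage, oncogene activity and other stresses stabilise, mostly at the level of the protein. It binds pairs of a 10-base half-site and activates genes that stop the cell cycle, repair DNA, start apoptosis or feed back on p53. In myeloid leukemia the pathway restrains clonal growth, and MLL-fusion cells usually keep an intact p53 gene. The mRNA level of Trp53 does not measure the activity of the protein, which RNA-seq does not read.

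The promoter sequences are shown because p53 acts on its targets through such half-sites. In the RefSeq promoter windows of GRCm38.p6, from 250 bases before to 50 bases after each transcript start, 7 of the 9 genes had a sequence. A match to the p53 half-site lay in the windows of 4 of these 7 genes, against 8.36% of all 32851 windows. The half-site reads the same on both strands, so 1 scan covers both. The printed stretches run 5′ to 3′ on the strand of the gene, with the half-site in capitals.
Trp53, chr11:69580249-69580328, plus strand, half-site 75 bases before the start: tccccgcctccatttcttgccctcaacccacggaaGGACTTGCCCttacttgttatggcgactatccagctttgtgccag
Mdm2, chr10:117710900-117710979, minus strand, half-site 186 bases before the start: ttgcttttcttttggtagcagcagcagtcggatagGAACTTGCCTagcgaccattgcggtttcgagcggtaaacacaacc
Ccng1, chr11:40755427-40755506, minus strand, half-site 185 bases before the start: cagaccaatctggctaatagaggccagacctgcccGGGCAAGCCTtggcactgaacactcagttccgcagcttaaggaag
Aen, chr7:78895927-78895956, plus strand, half-site 121 bases before one start and 10 bases after another: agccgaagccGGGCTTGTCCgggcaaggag
The windows of Phlda3, Plk2 and Eda2r held no match. No window of the 9 genes held a pair of half-sites at most 13 bases apart, a feature of 0.0731% of all windows. An upstream window of Cdkn1a, the gene of the cell cycle inhibitor p21, held such a pair. A match is a run of letters and no measured binding site, and p53 sites in introns or further upstream lie outside these windows.

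The libraries held 9212237 to 13613500 reads on genes. Cebpa and Cebpb had no read in any dKO library, against group means of 1101 and 1454 normalized reads in WT cells of C1 and of 1963 and 1467 in WT cells of C2. Their relative Cebpe was higher in dKO than in WT cells of both clones, and in LAPS than in WT cells of C1 (limma adjusted p under 0.05 in each). Reads assigned to Cebpb in LAPS libraries (3106 normalized reads on average) came with the rat sequence of the vector. Of the 12 myeloid progenitor markers examined, all were detected in 4 of the 5 groups, while Cd34 was at or under 3 reads in the WT libraries of C2, and the 6 lymphoid markers were at or under 3 reads in every library. Of the hepatocyte markers only Afp (at most 165 normalized reads in a library), of the stromal markers only Pdgfrb (group means of 2.99 to 98.5) and of the erythroid markers only Gata1 (0 to 28.3) had enough reads for a test. Pdgfrb and Gata1 were higher and Afp was lower in dKO than in WT cells of both clones, and the Afp call in C2 was lost in 4 of the 8 other settings and in 5 of the 6 fits without 1 library. The summed level of the myeloid progenitor markers was 107800 to 113300 normalized reads in WT, 153800 to 213900 in dKO and 177000 to 214300 in LAPS libraries. Of the 12 markers, 7 were called higher in dKO than in WT cells of C1, beside 17.1% of all genes tested. In C2, 7 were called higher and 2 lower, beside 17.4% and 20.1%. The part of these marker differences in the results below was not tested.

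Deletion of Cebpa and Cebpb went with lower levels of 4 of these p53 genes in C1 and with higher levels of 3 in C2. In C1, Mdm2, Phlda3, Aen and Plk2 fell in dKO against WT cells and no gene of the group rose. In C2, Trp53, Mdm2 and Phlda3 rose and none fell. At an unadjusted limma p under 0.05, 1 gene was higher in C1 (Trp53inp1) and 0 were lower in C2, and edgeR and DESeq2 called 0 in each of these directions. After quantile normalization Trp53inp1 was called higher in C1 (limma adjusted p = 0.047), and with the compared groups only Trp53 was called lower there (0.036). Enough reads for a test were found for 8 of the 9 genes, and their median difference was -0.32 in C1 and 0.35 in C2 on the log2(normalized reads + 1) scale, beside -0.02 and -0.03 over all 12673 genes tested. A gene was called at a Benjamini-Hochberg adjusted p under 0.05 in limma. By this rule 17.1% of all genes tested were called higher and 19.9% lower in C1, and 17.4% higher and 20.1% lower in C2. The 4 of 8 called lower in C1 and the 3 of 8 called higher in C2 stand against these shares. Mdm2 and Phlda3 were called lower in C1 and higher in C2, as were 1.98% of all genes tested, and no gene of the group was called with the same sign in both.

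**Figure D1:**
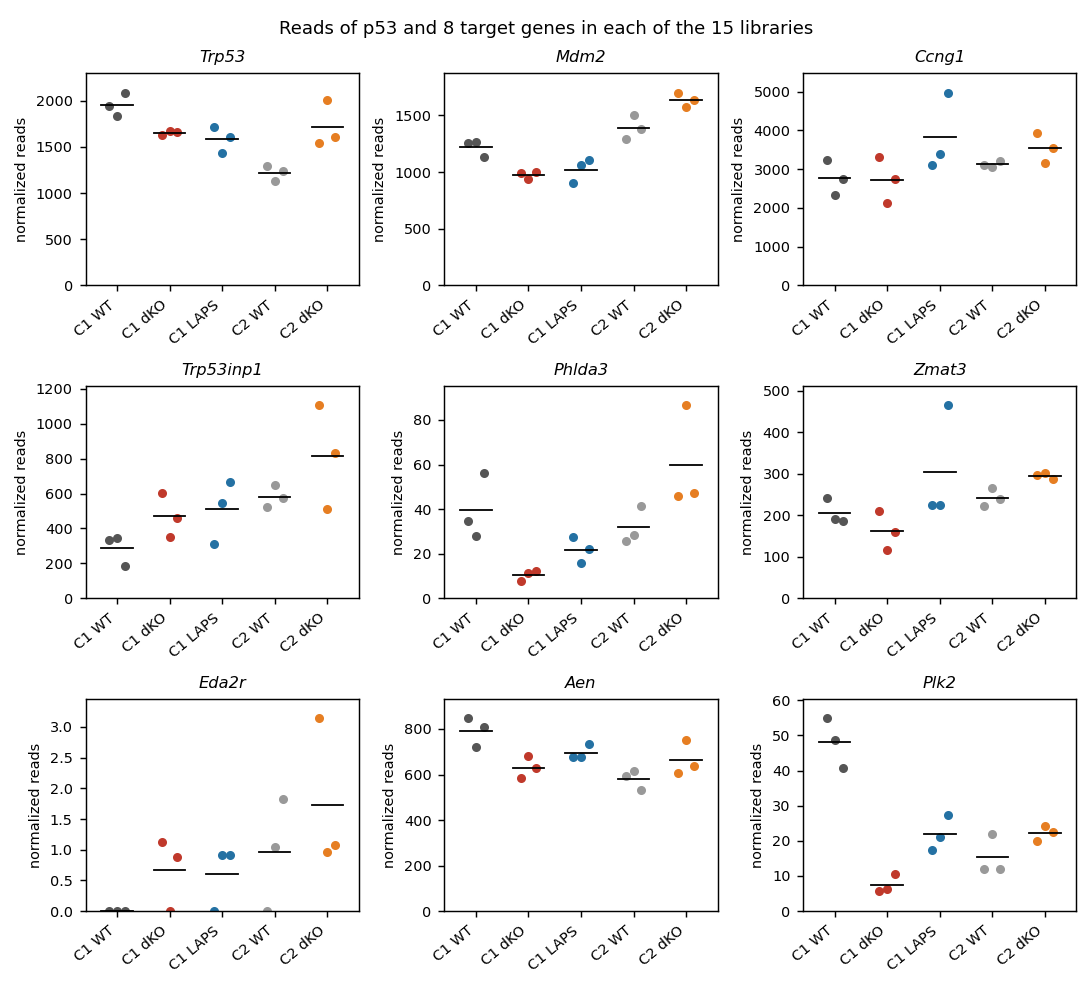
Normalized reads (y axis, linear, from 0) of Trp53 and 8 p53 target genes in the 15 libraries, by group on the x axis; points are libraries and lines are group means. Plk2 in C1 lies between 40.8 and 54.9 in WT and between 5.66 and 10.6 in dKO libraries, and Eda2r does not exceed 3.14 in any library.

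The difference between the clones was itself tested, as an interaction term. The dKO effect was higher in C2 than in C1 for Trp53, Mdm2, Phlda3, Aen and Plk2, and lower for none of the 8. Over all genes tested, 15.1% were called higher and 14.3% lower in this comparison. The same 5 genes were called, all in this direction, under each of 8 other settings and without any 1 of the 12 libraries concerned. The interaction term includes the difference between the WT lines. For Trp53 the dKO groups overlapped, with means of 1653 in C1 and 1719 in C2, while the WT means were 1953 and 1219. For Aen the dKO groups overlapped too, with means of 631 and 664, while the WT means were 792 and 580. For Ccng1, Trp53inp1 and Zmat3 the dKO effects of the clones were not distinguished. Their intervals reached from -0.31 to 0.73, from -1.24 to 0.63 and from -0.06 to 1.41 on the log2 scale.

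Trp53, on chromosome 11 (69580359 to 69591873, plus strand, in mm10), had 1939, 1832 and 2088 normalized reads in the WT libraries of C1 and 1631, 1671 and 1657 in the dKO libraries. In C2 it had 1294, 1130 and 1233 normalized reads in WT and 1544, 2009 and 1602 in dKO libraries. The WT and dKO libraries did not overlap in either clone: dKO libraries were the lower ones in C1 and the higher ones in C2. Its log2 difference was -0.24 (SE 0.096, limma adjusted p = 0.063) in C1, which missed the threshold (but passed it with the compared groups only, limma adjusted p = 0.036), and 0.49 (SE 0.096, limma adjusted p = 0.00085) in C2. The difference between these effects was 0.73 (SE 0.14, limma adjusted p = 0.00078).

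Mdm2 encodes the ubiquitin ligase that marks p53 for degradation and is itself activated by p53. It lies on chromosome 10 (117688875 to 117710758, minus strand). Its WT libraries of C1 had 1259, 1264 and 1131 normalized reads and its dKO libraries 995, 938 and 999. In C2 the WT libraries had 1291, 1502 and 1383 normalized reads and the dKO libraries 1702, 1575 and 1638. Again dKO libraries were all below WT libraries in C1 and all above them in C2. On the log2 scale Mdm2 differed by -0.32 (SE 0.083, limma adjusted p = 0.0072) in C1 and 0.24 (SE 0.083, limma adjusted p = 0.035) in C2. The call in C1 held without any 1 library. The call in C2 was lost without the WT library 1 or 3 or the dKO library 1 or 3 of C2, with limma adjusted p = 0.14, 0.083, 0.11 and 0.081, and with no filter on low values (0.062).

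**Figure D2:**
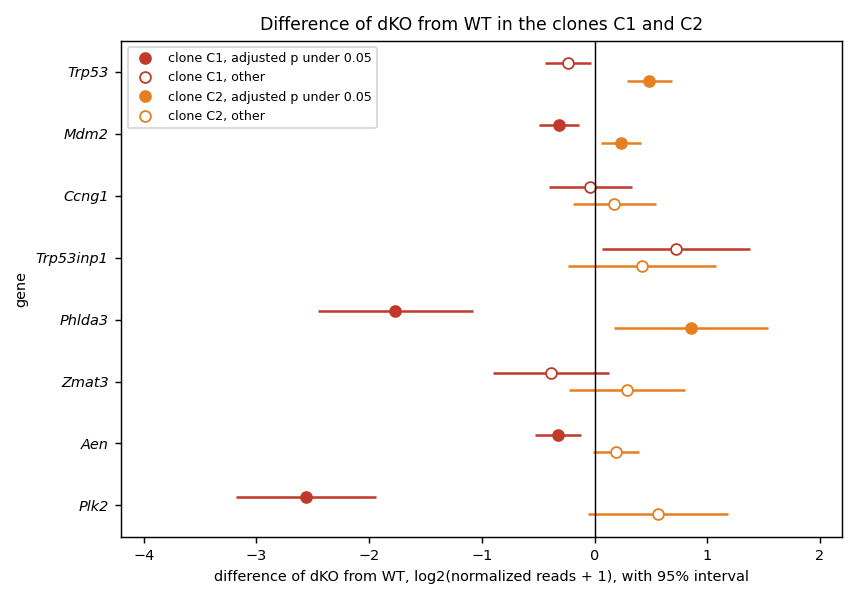
Difference of dKO from WT (x axis, log2(normalized reads + 1), bars are 95% intervals) for the 8 genes tested (y axis), in red for C1 and in orange for C2; filled points have an adjusted p under 0.05. Of the 8 genes, 7 lie below 0 in C1 and all 8 lie above 0 in C2.

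Phlda3 and Plk2 had the widest differences, from low levels. Phlda3, a small protein that opposes Akt signalling, lies on chromosome 1 (135766119 to 135769136, plus strand). It had 34.8, 28.0 and 56.0 normalized reads in WT and 7.93, 11.5 and 12.4 in dKO libraries of C1, and 25.9, 28.3 and 41.2 in WT and 46.0, 86.5 and 47.2 in dKO libraries of C2. No WT library overlapped the dKO libraries of its clone. Its log2 difference was -1.77 (SE 0.32, limma adjusted p = 0.00043) in C1. In C2 it was 0.86 (SE 0.32, limma adjusted p = 0.047), and this call was lost without the WT library 1 or 2 or the dKO library 2 or 3 of C2, with limma adjusted p of 0.052 to 0.22, and under 4 of the 8 other settings (0.054 to 0.093). The difference between the clones was 2.63 (SE 0.46, limma adjusted p = 0.00045) on the log2 scale.

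Plk2 encodes a kinase of the polo-like family and lies on chromosome 13 (110395046 to 110400844, plus strand). It had 54.9, 48.7 and 40.8 normalized reads in WT and 5.66, 6.29 and 10.6 in dKO libraries of C1, a ratio of dKO to WT means of 0.156. In C2 it had 12.0, 22.0 and 11.9 normalized reads in WT and 19.9, 24.3 and 22.5 in dKO libraries, and here the groups overlapped. Plk2 differed by -2.56 (SE 0.29, limma adjusted p = 4.5e-06) in C1 and by 0.56 (SE 0.29, limma adjusted p = 0.14) in C2 on the log2 scale, and the clones differed by 3.13 (SE 0.41, limma adjusted p = 4.2e-05). Without the WT library 2 of C2, and after quantile normalization, the C2 difference passed the threshold (limma adjusted p = 0.043 in each).

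Aen encodes a nuclease that takes part in the breakdown of DNA in apoptosis. It lies on chromosome 7 (78895854 to 78911209, plus strand). It had 847, 722 and 807 normalized reads in WT and 586, 680 and 627 in dKO libraries of C1, with no overlap. In C2 the WT libraries had 592, 618 and 530 and the dKO libraries 605, 750 and 637 normalized reads, which overlapped. Aen differed by -0.33 (SE 0.096, limma adjusted p = 0.014) in C1 and by 0.19 (SE 0.096, limma adjusted p = 0.13) in C2 on the log2 scale. The C1 call was lost without the WT library 1 or the dKO library 1, with limma adjusted p = 0.066 and 0.06.

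Ccng1, Zmat3 and Trp53inp1 passed the test in neither clone, although Zmat3 did so in C2 with the compared groups only (limma adjusted p = 0.047) and Trp53inp1 in C1 after quantile normalization (limma adjusted p = 0.047). Ccng1, which encodes cyclin G1 and had the highest level of the 9 genes per kilobase of exon in every group, had group means of 2780 ± 448 (SD, n = 3) normalized reads in WT and 2727 ± 598 in dKO cells of C1, and of 3127 ± 87.9 and 3540 ± 387 in C2. The log2 difference was -0.04 in C1 and 0.17 in C2, with 95% intervals from -0.41 to 0.33 and from -0.20 to 0.54. Zmat3, an RNA-binding zinc finger protein, had a log2 difference of -0.39 in C1 and 0.29 in C2, with limma adjusted p = 0.24 and 0.38. Its 3 dKO libraries of C2 (297, 301 and 289 normalized reads) all lay above the WT libraries (222, 265 and 240).

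Trp53inp1 encodes a protein that promotes p53-dependent apoptosis and autophagy. It was the only gene of the 8 whose difference was positive in C1. It had 335, 346 and 186 normalized reads in WT and 603, 351 and 461 in dKO libraries of C1, without overlap, and a log2 difference of 0.72 (SE 0.31, limma adjusted p = 0.081). In C2 the values were 521, 650 and 577 in WT and 1105, 511 and 830 in dKO libraries, with a log2 difference of 0.42 (SE 0.31, limma adjusted p = 0.31). Eda2r, a receptor of the tumour necrosis factor receptor family, had 0 to 3.14 normalized reads in the 15 libraries. It was at or under 3 reads in every library, so no fold is given and any difference was not detectable at this depth.

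LAP* was compared with dKO and WT cells in C1. Only Plk2 was called between LAPS and dKO cells among the 8 genes, where 1.43% of all genes tested were called higher and 3.03% lower. Plk2 had 17.3, 21.2 and 27.4 normalized reads in LAPS libraries, all above the dKO and all below the WT libraries of C1. The log2 difference was 1.45 (SE 0.29, limma adjusted p = 0.0093) from dKO and -1.11 (SE 0.29, limma adjusted p = 0.0078) from WT cells. The call against dKO cells was lost without the LAPS library 3 and in a fit of the compared groups only, with limma adjusted p = 0.058 in each. Phlda3 also lay between dKO and WT in all 3 LAPS libraries, with 27.4, 15.7 and 21.9 normalized reads, but passed neither test (log2 difference 0.95 from dKO and -0.82 from WT, limma adjusted p = 0.12 and 0.065).

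Against WT cells, LAPS cells of C1 had less Trp53, Mdm2 and Plk2, where 14.2% of all genes tested were called higher and 18.3% lower. The log2 difference was -0.30 (SE 0.096, limma adjusted p = 0.024) for Trp53 and -0.26 (SE 0.083, limma adjusted p = 0.027) for Mdm2. The Trp53 call was lost without the WT library 1 or 3 or the LAPS library 2 (limma adjusted p = 0.055, 0.08 and 0.11) and after quantile normalization (0.10). The Mdm2 call was lost without the WT library 1 or 2 or the LAPS library 1 (limma adjusted p = 0.09, 0.087 and 0.14), after quantile normalization (0.09) and with the compared groups only (0.10). The Plk2 call held in all 6 fits that leave out 1 library. Under other settings genes were called in the other direction. Ccng1 was called higher in LAPS than in WT cells after quantile normalization (limma adjusted p = 0.021), with a replicate block (0.038), in edgeR (0.047) and in DESeq2 (0.026), and without the WT library 1 or the LAPS library 1 (0.04 and 0.029). Trp53inp1 was called higher after quantile normalization (limma adjusted p = 0.028), in edgeR (0.047) and without the LAPS library 1 (0.013). After quantile normalization the 3 called genes were thus 2 higher and 1 lower. Phlda3 was called lower only without the WT library 2 (limma adjusted p = 0.039). Trp53 had 1713, 1437 and 1610 normalized reads and Mdm2 902, 1059 and 1106 in LAPS libraries, which overlapped the dKO libraries. The comparisons of LAPS with dKO, of LAPS with WT and of dKO with WT in C1 share libraries and are not independent of each other.

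Zmat3 and Ccng1 were highest in the LAPS library 3. Zmat3 had 226, 224 and 465 normalized reads in LAPS libraries, all above the dKO libraries (210, 115 and 159), and a log2 difference from dKO of 0.87 (SE 0.24, limma adjusted p = 0.056). The difference passed the threshold in edgeR (adjusted p = 0.045), in DESeq2 (adjusted p = 0.0077) and in limma after quantile normalization (adjusted p = 0.039) and without the dKO library 1 or the LAPS library 1 (0.036 and 0.042). Without the LAPS library 3 it was 0.52 with limma adjusted p = 0.25. Ccng1 had 3096, 3391 and 4979 normalized reads in LAPS libraries, with a log2 difference from dKO of 0.48 (SE 0.17, limma adjusted p = 0.14).

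**Figure D3:**
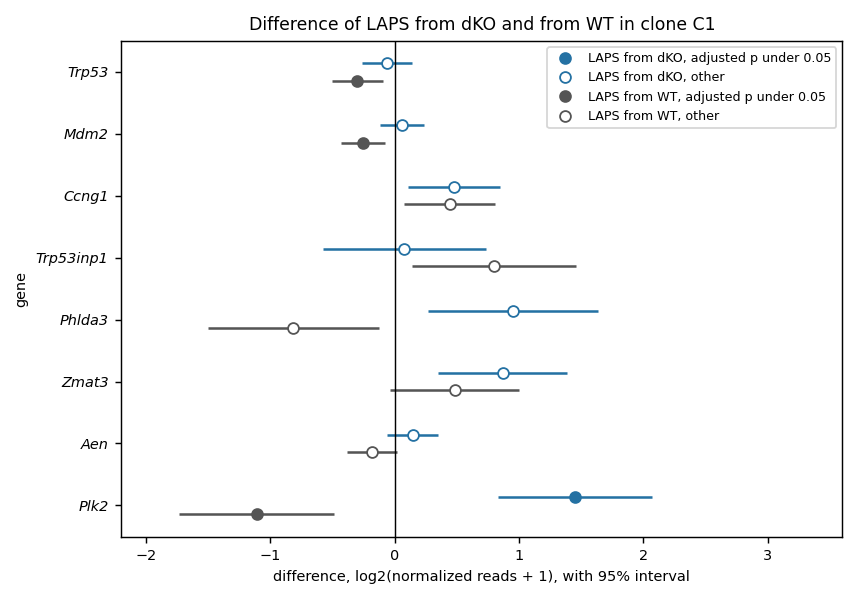
Difference of LAPS from dKO (blue) and from WT cells (grey) of clone C1 (x axis, log2(normalized reads + 1), bars are 95% intervals) for the 8 genes tested (y axis); filled points have an adjusted p under 0.05. Plk2 is called higher than in dKO (1.45) and lower than in WT cells (-1.11).

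The 2 WT lines differed before any deletion. Trp53, Aen and Plk2 were lower and Trp53inp1 was higher in WT cells of C2 than in WT cells of C1, where 19.7% of all genes tested were called higher and 21.3% lower. The log2 difference was -0.68 (SE 0.096, limma adjusted p = 3e-05) for Trp53, -0.45 (SE 0.096, limma adjusted p = 0.0014) for Aen and -1.64 (SE 0.29, limma adjusted p = 0.00029) for Plk2. It was 1.06 (SE 0.31, limma adjusted p = 0.013) for Trp53inp1, and this call was lost without the WT library 3 of C1 (limma adjusted p = 0.067). Mdm2 was called higher only without the WT library 1 of C2 (limma adjusted p = 0.049) and after quantile normalization (0.024). For the 4 genes called, the libraries of the 2 WT lines did not overlap, and neither did they for Mdm2. Clone and animal cannot be told apart in this comparison, and its WT libraries also enter the dKO comparisons. For Trp53, Aen and Plk2 the WT group of C1 was the highest of the 5 groups. For Trp53 the WT group of C2 was the lowest, and its libraries did not overlap those of any other group. For Plk2 the dKO group of C1 was the lowest, and none of its libraries overlapped another group.

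The order of the groups differed between the genes. Per kilobase of exon, group means of Trp53 ran from 301 normalized reads in WT cells of C2 to 483 in WT cells of C1, and those of Mdm2 from 192 in dKO cells of C1 to 322 in dKO cells of C2. Mdm2 had an order of dKO of C2, WT of C2, WT of C1, LAPS and dKO of C1, in which only the last 2 neighbours overlapped. Ccng1 ran from 777 to 1088 normalized reads per kilobase, with every neighbouring pair of groups overlapping. Aen reached 137 in WT cells of C1 on this scale, and Trp53inp1 ran from 44.6 to 126, Zmat3 from 14.1 to 26.7, Phlda3 from 6.81 to 38.4 and Plk2 from 1.67 to 10.7. On this scale Ccng1 was the highest and Plk2 the lowest of the 8 genes in every group.

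Some of the genes varied widely among the libraries of a group. The standard deviation within groups on the log2 scale was 0.46 for Trp53inp1, 0.35 for Zmat3 and 0.25 for Ccng1, at the percentiles 98.9, 94.5 and 95.2 of genes of like level. It was 0.13 for Trp53, 0.10 for Mdm2 and 0.12 for Aen, at the percentiles 63.9, 40.5 and 47.7. Phlda3 and Plk2, with fewer reads, had 0.42 and 0.34, at the percentiles 64.2 and 24.8. Zmat3, Ccng1 and Trp53inp1 deviated in the same direction in 9 of the 15 libraries and in mixed directions in 6, such as the LAPS library 2, where Trp53inp1 was above its group mean by 0.17 and Zmat3 below it, at -0.35. In the dKO library 1 of C1 all 3 were above the mean of their group, by 0.42, 0.30 and 0.39, and in the dKO library 2 of C1 all 3 were below it, at -0.44, -0.34 and -0.39. The LAPS library 3 was the highest of its group for 6 of the 8 genes. These deviations are a description of single cultures and were not tested.

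**Figure D4:**
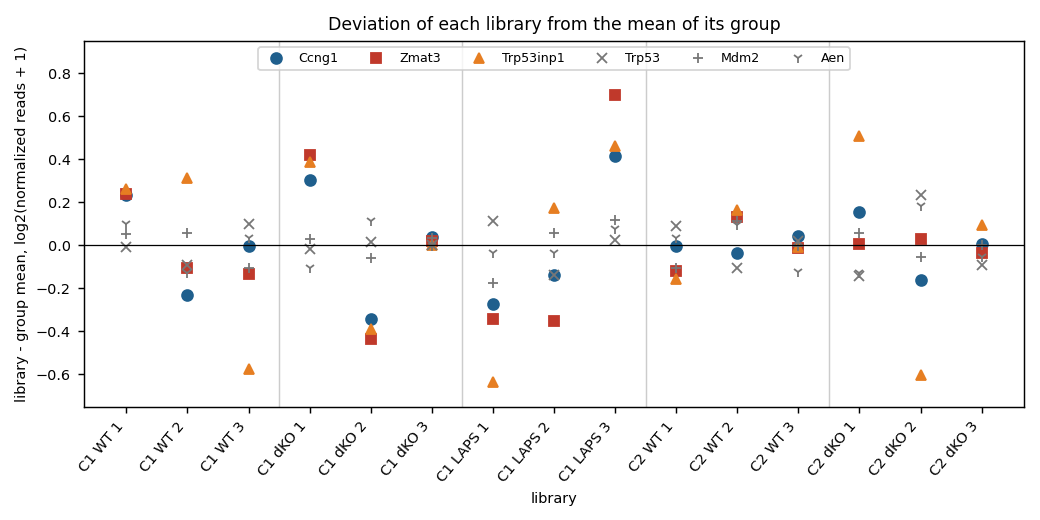
Deviation of each library (x axis) from the mean of its group (y axis, log2(normalized reads + 1)) for Ccng1, Zmat3 and Trp53inp1 (filled, coloured) and for Trp53, Mdm2 and Aen (grey); Phlda3 and Plk2, which had few reads, are not plotted. The coloured points reach 0.70 above and -0.63 below the group mean, while the grey ones stay between -0.18 and 0.24.

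Likeness between genes was measured as the root mean square difference of centred log2 levels over the 15 libraries. By this measure the tested gene most like Zmat3 was Ccng1, at 0.22, where the median gene stood at 0.54. The gene most like Ccng1 was Nkrf (0.16), and that most like Trp53 was Mcm3, a subunit of the replicative helicase (0.12), with Aen as the nearest of the 8 (0.15, rank 41 of all genes). For the other genes than Zmat3 and Trp53, the nearest of the 8 ranked from 189 to 446 among all genes, except for Mdm2, whose nearest was Ccng1 at rank 3851. Mdm2 was most like Slmap (0.080), Aen most like Zfp568 (0.083), Trp53inp1 most like Ap1s3 (0.30), Phlda3 most like Map4k3 (0.46) and Plk2 most like Tmsb10 (0.42). The points of each profile share libraries and clones.

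The other p53 targets examined were called in both directions in each clone. Of 47 further targets in 3 lists (arrest and repair, death, metabolism and signalling), 44 were tested. In C1, 12 were called higher and 9 lower, beside 17.1% and 19.9% of all genes tested, and in C2, 10 higher and 9 lower, beside 17.4% and 20.1%. In both clones, 7 were called higher and 6 lower, and 0 were called in opposite directions in limma, edgeR or DESeq2 (1 at an unadjusted p under 0.05 in limma). Over all genes tested, 5.69% were called higher in both, 8.36% lower in both, 1.98% lower in C1 and higher in C2 and 2.12% the other way, so a count of 0 among 44 is near the share of all genes. The median log2 difference of the 44 was 0.01 in C1 and 0.00 in C2.

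Among the best known targets, Cdkn1a had 1158 ± 389 (SD, n = 3) normalized reads in WT and 860 ± 89.8 in dKO cells of C1, and 1982 ± 474 and 1479 ± 83.2 in C2. Its log2 difference was -0.37 in C1 and -0.39 in C2 (limma adjusted p = 0.18 and 0.16). It passed the threshold without the WT library 3 of C1 (limma adjusted p = 0.0064) and without the WT library 1 of C2 (limma adjusted p = 0.037). Bax, an effector of mitochondrial apoptosis, had log2 differences of -0.12 and -0.11, and Pmaip1 (Noxa) of -0.38 and 0.16, with no call in either clone, although Pmaip1 passed the threshold in C1 without the WT library 3 (limma adjusted p = 0.045). Bbc3 (Puma), which also triggers mitochondrial apoptosis, rose in C2 (0.75, SE 0.19, limma adjusted p = 0.0064) and was at 0.39 in C1 (limma adjusted p = 0.13, and 0.032 without the dKO library 1).

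In the arrest and repair list, 5 of 14 genes rose in both clones, beside 5.69% of all genes tested. The noncoding RNA Trp53cor1 rose by 1.38 in C1 and 1.67 in C2 on the log2 scale, the microtubule protein gene Psrc1 by 0.76 and 1.45, Sfn (14-3-3σ) by 0.86 and 0.61, and Xpc, which finds DNA lesions for excision repair, by 0.44 and 0.53. The excision repair gene Ercc5 also rose in both, with a limma adjusted p of 0.024 in C1 and 9.5e-06 in C2. The C1 call was lost without the WT library 1 or 2 or the dKO library 3 (limma adjusted p up to 0.11) and with the compared groups only (0.092), and the call of Sfn in C2 without the dKO library 3 (limma adjusted p = 0.059). In the death list, Fas, Tnfrsf10b and Dram1 fell in both clones and Trp53i11 rose in both, of 13 genes, beside 8.36% of all genes called lower and 5.69% called higher in both. The death receptor gene Fas differed by -1.71 in C1 and -0.52 in C2, and the death receptor gene Tnfrsf10b by -2.65 and -1.28. Dram1, a lysosomal regulator of autophagy, differed by -1.45 and -1.36. The Fas call in C2 was lost without the WT library 1 or 2 or the dKO library 3 of C2 (limma adjusted p up to 0.089), after quantile normalization (0.11) and with the compared groups only (0.055).

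Trp53i11 had 13.2 ± 9.70 normalized reads in WT and 47.4 ± 12.9 in dKO cells of C1, and 1.97 ± 0.14 in WT and 136 ± 13.1 in dKO cells of C2 (SD, n = 3). Its WT libraries of C2 held at most 2 reads each, so the size of a fitted fold there depends on the pseudocount. Its C1 call was lost with the compared groups only (limma adjusted p = 0.071). In the list of metabolism and signalling targets, 17 of 20 genes were tested. In C1, 4 were called higher and 5 lower, beside 17.1% and 19.9% of all genes tested. In C2, 2 were called higher and 5 lower, beside 17.4% and 20.1%. Sesn1 rose in both clones (0.25 and 0.34), while Tigar (-0.30 and -0.59), Rap2b (-0.50 and -0.41) and Cd82 (-0.27 and -0.48) fell in both. These are 1 of 17 higher and 3 of 17 lower in both, beside 5.69% and 8.36% of all genes tested. The C1 call of Sesn1 was lost without the dKO library 3 (limma adjusted p = 0.052) and with the compared groups only (0.064). That of Tigar was lost without the WT library 3 or the dKO library 1 or 3 (limma adjusted p = 0.071, 0.078 and 0.089) and after quantile normalization (0.075). That of Cd82 was lost without the WT library 2 or 3 or the dKO library 1 or 2 (limma adjusted p = 0.067, 0.13, 0.072 and 0.073), after quantile normalization (0.11) and with the compared groups only (0.10).

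**Figure D5:**
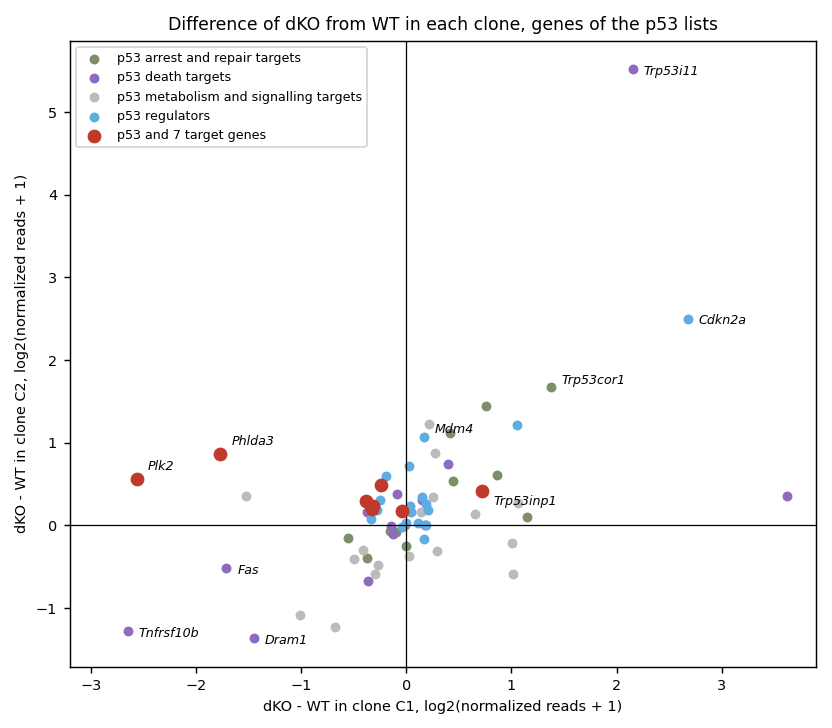
Difference of dKO from WT in C1 (x axis) and in C2 (y axis), both in log2(normalized reads + 1), for the tested genes of the p53 lists; points are genes, coloured by list, with Trp53 and its 7 tested target genes in red. Phlda3 (-1.77, 0.86) and Plk2 (-2.56, 0.56) lie left of and above 0, while Fas, Tnfrsf10b and Dram1 lie below 0 and Trp53i11 and Cdkn2a above 0 in both clones.

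Among genes that regulate p53, Cdkn2a, Hipk2 and Rpl5 were higher in dKO than in WT cells of both clones, beside 5.69% of all genes tested. Of 21 regulators, 19 were tested. In C1, 4 were called higher and 2 lower, and in C2, 8 higher and 0 lower in limma, with 0 lower also at an unadjusted p under 0.05 and in edgeR and DESeq2. Over all genes tested, 17.1% were called higher and 19.9% lower in C1, and 17.4% higher and 20.1% lower in C2, so the 4 of 19 higher in C1 are near the share of all genes. Cdkn2a, which encodes p16Ink4a and the Mdm2 inhibitor p19Arf in overlapping transcripts that gene counts do not separate, rose from 10.8 ± 1.24 to 74.8 ± 12.7 normalized reads in C1 and from 82.6 ± 35.4 to 439 ± 63.9 in C2 (SD, n = 3). Its log2 difference was 2.68 (SE 0.27, limma adjusted p = 1.4e-06) in C1, and it was called higher in C2 as well (limma adjusted p = 3.5e-06). LAPS cells had 78.8 ± 6.74 normalized reads. Hipk2, a kinase that phosphorylates p53, rose by 1.06 in C1 and 1.21 in C2. Rpl5, a ribosomal protein that binds Mdm2 and whose reads can be shared with processed pseudogenes, rose by 0.19 and 0.26, and its C1 call was lost without any 1 of the 3 WT libraries or the dKO library 1 or 2 (limma adjusted p of 0.054 to 0.16), with no filter on low values (0.079) and with the compared groups only (0.12). Its C2 call was lost after quantile normalization (limma adjusted p = 0.052).

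Mdm4, which binds and inhibits p53, had 2572 ± 150.2 and 2894 ± 149.8 normalized reads in WT and dKO cells of C1 and 1878 ± 67.1 and 3959 ± 368 in C2 (SD, n = 3). It rose in C2 (1.07, SE 0.097, limma adjusted p = 4.9e-07) and was at 0.17 in C1 (limma adjusted p = 0.19, and 0.035 after quantile normalization), and the clones differed by 0.90 (SE 0.14, limma adjusted p = 0.00014). The list of 12 cell cycle genes that p53 represses through p21 had 0 genes higher and 6 lower in each clone in limma, and 0 higher also at an unadjusted p under 0.05 and in edgeR and DESeq2, where 19.9% and 20.1% of all genes tested were called lower. In edgeR and DESeq2 the lower count was 7 in C1 in each, and 4 and 5 in C2. Ccnb1, Plk1, Aurka and Ccna2 were called lower in both, as were 8.36% of all genes tested, by -0.40, -0.43, -0.33 and -0.36 in C1 and by -0.30, -0.26, -0.35 and -0.28 in C2. The C1 calls of Aurka and Ccna2 were lost without the WT library 3 or the dKO library 2 or 3 (limma adjusted p of 0.053 to 0.14), after quantile normalization (0.12 and 0.084) and with the compared groups only (0.058 and 0.071), and that of Aurka with no filter (0.051). The C2 call of Plk1 was lost in 5 of the 8 other settings, edgeR (adjusted p = 0.062) and DESeq2 (0.064) among them, and in 5 of the 6 fits without 1 library. That of Ccna2 was lost in edgeR (adjusted p = 0.054), with no filter and in all 6 fits without 1 library, and that of Aurka without the WT library 1 or the dKO library 1 or 3 of C2 (limma adjusted p of 0.081 to 0.094). In C2 the count of 6 fell to 3 without the WT library 1, to 2 without the dKO library 1 and to 3 without the dKO library 3.

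Between LAPS and dKO cells of C1, 2 of the 44 further targets were called higher (Tnfrsf10b and Epha2) and 2 lower (Dram1 and Sulf2), and 0 of the 19 regulators and 0 of the 12 cell cycle genes in limma, where 1.43% of all genes tested were called higher and 3.03% lower. At an unadjusted p under 0.05 these were 3 regulators, all higher, and 1 cell cycle gene, lower, while edgeR called 0 of both and DESeq2 called 1 regulator. Tnfrsf10b had 25.3 ± 10.5 normalized reads in LAPS cells against 7.95 ± 3.34 in dKO and 52.4 ± 8.12 in WT cells (SD, n = 3), and its call against dKO cells was lost without the dKO library 2 or the LAPS library 3 (limma adjusted p = 0.073 and 0.082). The call of Tnfrsf10b was also lost with the compared groups only (limma adjusted p = 0.12). That of Dram1 was lost without the dKO library 1 or 3 or the LAPS library 2 or 3 (limma adjusted p of 0.056 to 0.093), that of Epha2 with the compared groups only (0.062), and that of Sulf2 in 3 of the 8 other settings and in 5 of the 6 fits without 1 library. The count of 4 was 2 without the dKO library 2 or 3 or the LAPS library 2 or 3, and 1 with the compared groups only.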

How the data were processed

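RNA was measured in 15 stranded paired-end libraries, 3 per group, and groups were taken from the sample titles. The authors aligned the reads to mm10 with STAR 2.5.3a, counted reads per gene with HTSeq 0.10.0 and deposited counts divided by 1 DESeq2 size factor per library (DESeq2 1.26.0), a normalized signal per gene; the gene annotation and the strand setting of the counting are not given in the sources used here. A further 3 value columns could not be tied to a sample and were not used. From 22.4 to 26.2% of reads were assigned to no gene and were left out.

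Values were compared in limma 3.58.1 (R 4.3.3) with a trend, after adding 1 and taking log2. The model held a mean for each of the 5 groups and used all 15 libraries. It was fitted to the 12673 genes that reached 10 normalized reads in 3 or more libraries. p-values were two-sided and adjusted by Benjamini-Hochberg over these genes; fold changes on this scale understate those of low genes. Whole reads were recovered from the steps of the values (99.99% of values or more within 0.1 of a whole read) for the alternatives in edgeR 4.0.16 and DESeq2 1.42.0. Total reads on genes, 9212237 to 13613500, set the precision. At or under 3 reads in every library of a group, a gene was treated as at the floor. Other alternatives were a pseudocount of 0.1 or 5, no filter, quantile normalization, the compared groups only, a replicate block and leaving out each library. The fits were tested on simulated data. No 2 libraries of 1 group agreed within sampling noise (chi-square per degree of freedom 5.36 to 33.7).

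Genes other than the 9 were named by a rule: Cdkn1a, Bbc3, Bax, Pmaip1, Mdm4 and Cdkn2a; the C/EBP genes; up to 4 genes of each p53 list with the largest mean difference among those called with the same sign in C1 and C2, and any called in opposite directions; and the nearest genes by likeness. Afp, Pdgfrb, Gata1 and Cd34 came from the marker lists and were named after their values were seen. Epha2, Sulf2, Xpc, and in the closing section Ddb2, Perp, Apaf1, Slc19a2, Dcxr, Tap1 and Abhd4, were named after their values were seen. The genes and lists were chosen with earlier results of these data known. Coordinates are from GENCODE vM21 and promoters from RefSeq, both of GRCm38. Figures were drawn with matplotlib 3.10.9.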

Additional observations from a re-analysis of the deposited data

Results flagged for a closer look

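The dKO effect differed between the clones, by the interaction term in limma, for 5 of the 8 genes tested. All 5 were higher in C2, where 15.1% of all genes tested were called higher and 14.3% lower. Of the 44 further targets tested, 8 were called higher and 5 lower, near these shares. Of the 19 regulators tested, 5 were called higher and 0 lower, with 2 lower at an unadjusted limma p under 0.05. Only some of these genes are named below. On the log2 scale the effect in C2 exceeded that in C1 by 0.73 for Trp53 (adjusted p = 0.00078), 0.55 for Mdm2 (0.0022), 2.63 for Phlda3 (0.00045), 0.52 for Aen (0.0089) and 3.13 for Plk2 (4.2e-05). Among the other named p53 genes it did so by 0.90 for Mdm4 (adjusted p = 0.00014), 0.69 for Psrc1 (0.0099), 0.70 for Ercc5 (0.011), 3.36 for Trp53i11 (0.0025), 1.36 for Tnfrsf10b (0.041) and 1.19 for Fas (0.00093). Psrc1, Ercc5, Trp53i11, Tnfrsf10b and Fas were called with the same sign in C1 and C2 and differed in size. The Tnfrsf10b difference was lost in 3 of the 8 other settings and in 7 of the 12 fits without 1 library. The WT libraries of C2 held at most 2 reads of Trp53i11, so the size of its difference depends on the pseudocount: it ran from 2.64 to 4.25 over the 8 other settings and from 2.91 to 4.27 without 1 library. Among the targets named after their values were seen, the effect in C2 exceeded that in C1 by 0.47 for Apaf1 (adjusted p = 0.0033), 0.60 for Slc19a2 (0.024) and 1.87 for Tap1 (0.0053), and the difference was -1.05 for Ddb2 (0.0015), -3.27 for Perp (0.0014), -0.52 for Dcxr (0.027) and -0.40 for Abhd4 (0.015). Perp was at or under 3 reads in every WT library of C1 and every library of C2, and its difference ran from -4.86 to -1.80 over the 8 other settings and was not called in edgeR (adjusted p = 0.92) or DESeq2 (0.14). That of Slc19a2 was lost in 5 and that of Dcxr in 6 of the 12 fits without 1 library. No test of single outlying libraries was made.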

How the results depend on the processing

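Counts of all genes called moved by more than 1.5 times only between LAPS and dKO cells, from 565 to between 276 and 366 without 1 library. Without the LAPS library 1 the count was 487, which is within 1.5 times. In the other comparisons the fits without 1 library gave 3820 to 4687 calls (dKO against WT in C1), 3893 to 4321 (C2), 3209 to 3770 (difference between clones), 3469 to 4192 (LAPS against WT) and 4387 to 4882 (WT lines). Quantile normalization moved the share of higher calls from 46.3% to 56.6% in dKO against WT of C1 and from 43.6% to 56.9% in LAPS against WT. Of the 8 genes tested, the number called for dKO against WT in C2 went from 3 to 1 with no filter and ranged from 1 to 3 without 1 library. Between LAPS and dKO cells it went from 1 to 2 after quantile normalization, in edgeR and in DESeq2, to 0 with the compared groups only, and ranged from 0 to 2 without 1 library; against WT cells it went from 3 to 5 in edgeR. The difference between clones of Gata1, not called at -0.13, was called at 2.53 with a pseudocount of 0.1 (its WT libraries were at or under 3 reads in both clones). No called difference of the 8 genes or of the other genes followed under these settings changed its sign. Replicate numbers did not pair the samples (same-number correlations of deviations -0.319 to 0.297, 5 of 30 over 0.1), and with a replicate block 4557, 4619, 3583, 488, 3994 and 5028 genes were called in the 6 comparisons. With the block, the call of Phlda3 in C2 was lost (adjusted p = 0.054) and Ccng1 was called higher in LAPS than in WT cells (0.038), as it also was after quantile normalization, in edgeR and in DESeq2. Genes at or under 3 reads in every library, such as Eda2r, could not be compared at this depth.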

Other observations

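Of the 44 further p53 targets tested, 7 (15.9%) were called in 1 clone alone with a called difference between the clones, as were 20.2% of all genes tested. In C1, 3 were higher and 1 was lower, and in C2, 2 were higher and 1 was lower. They were named after their values were seen. Ddb2, which recognises DNA lesions caused by ultraviolet light, was higher in dKO than in WT cells of C1 by 1.15 on the log2 scale (SE 0.15, limma adjusted p = 1.9e-05) and stood at 0.10 in C2 (limma adjusted p = 0.63), and the effect in C2 was lower by 1.05 (interaction -1.05, limma adjusted p = 0.0015). Apaf1, the scaffold of the apoptosome, stood at -0.08 in C1 (limma adjusted p = 0.41) and was higher by 0.38 in C2 (limma adjusted p = 0.00077, interaction 0.47, limma adjusted p = 0.0033). The thiamine transporter gene Slc19a2 stood at 0.27 in C1 (limma adjusted p = 0.12) and was higher by 0.87 in C2 (limma adjusted p = 8.7e-05, interaction 0.60, limma adjusted p = 0.024). Perp, a membrane protein linked to p53-dependent apoptosis, averaged 0.30 normalized reads in WT and 15.9 in dKO cells of C1, had 17.3 to 24.4 in LAPS libraries, and was at or under 3 reads in every library of C2. Dcxr was higher in C1 (0.65, limma adjusted p = 0.00038) and stood at 0.13 in C2. Tap1, a subunit of the antigen peptide transporter, was lower in C1 (-1.52, limma adjusted p = 0.0014) and stood at 0.35 in C2. Abhd4 stood at 0.03 in C1 and was lower in C2 (-0.37, limma adjusted p = 0.0018).

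Between the WT lines, 8 of the 44 further targets tested were higher in C2 and 8 were lower, near the 19.7% and 21.3% of all genes tested. The higher count fell to 5 without the WT library 3 of C1 or the WT library 3 of C2, and after quantile normalization 12 were higher and 7 lower. Cdkn1a was among the higher ones, with a log2 difference of 0.81 (SE 0.21, limma adjusted p = 0.0059, and 0.069 with the compared groups only), and Fas among the lower ones, with -2.11 (SE 0.16, limma adjusted p = 3.8e-08).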
